A study of Mus musculus with 8 samples.

Results

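The window of mouse chromosome 1 that holds the genes Wnt6, Ihh, Epha4 and Pax3 was examined in peak lists of ChIP-seq, the sequencing of DNA that an antibody pulls down with its protein, for CTCF and for Smc3, a subunit of cohesin. The 4 genes were taken by symbol from the RefSeq table of the mm10 assembly (GRCm38.p6), and the window runs from 100 kb before the first to 100 kb after the last of them, chr1:74654342-78297136, 3643 kb in all. By summit it held 165 of 82227 C59 CTCF peaks, 170 of 98759 WT CTCF peaks, 57 of 25734 C59 Smc3 peaks and 98 of 47281 WT Smc3 peaks, 490 of 254001 peaks in all. C59 is a single knock-in clone of JM8.N4, homozygous for CTCF with a FLAG epitope and a HaloTag and for Rad21 with a SNAPf tag and a V5 epitope, and WT is the untagged wild type of this embryonic stem cell line. Cells were kept in serum and LIF without feeders and fixed with formaldehyde, and the labels name no further treatment. The antibodies were against CTCF (Abcam) and Smc3 (Bethyl) in both lines, while the extraction text names anti-Rad21 where the antibody labels name Smc3. Each list came from 1 library, so nothing below has a spread between replicates, no test between the lines could be made, and the lists carry no read totals, so sequencing depth is unknown.

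CTCF recognises its DNA motif through zinc fingers and marks insulators. Cohesin, a ring of which Smc3 is a core subunit, extrudes chromatin loops until it meets CTCF. Such loops divide chromosomes into domains within which enhancers find their promoters. Wnt6 encodes a secreted Wnt ligand, Ihh the hedgehog ligand of growing cartilage, Epha4 a receptor tyrosine kinase for ephrins that is active in the limb bud, and Pax3 a paired-box transcription factor of neural crest and muscle precursors. The locus is known for limb malformations in people and mice. In these, deletions, inversions or duplications that alter the domains bring the limb enhancers of the Epha4 domain into contact with Pax3, Wnt6 or Ihh.

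The window falls into a gene-dense end with Wnt6 and Ihh, from its start to the end of Slc4a3, an anion exchanger gene, and a gene-poor remainder. Of its 39 protein-coding genes 36 lie in the 905 kb up to the end of Slc4a3. The gap from there to Epha4 measures 1808 kb and the gap from Epha4 to Pax3 586 kb, and these are the only gaps of at least 200 kb between protein-coding genes in the window. Sequence was at hand for promoters (from 250 bases before to 50 after a RefSeq start site, 300 bases in all) and for microRNA hairpins, not for sites between genes. Of 59 promoters in the window, 5 held a CTCF summit in C59 and 5 in WT (8.47% in each). Over all 32851 promoters on record the shares were 6.10% in C59 and 7.08% in WT. No promoter of Wnt6, Ihh or Epha4 held a CTCF summit. The promoter of Epha4 is shown because it sits between CTCF peaks on either side. That of Prkag3, the neighbour of Wnt6, is shown because summits of all 4 lists fell in it, and those of Ptprn and Dnpep, of the gene-dense end, because a CTCF summit and the core letters of the CTCF motif fell together there. These letters, searched on both strands, were CC, any 3 bases, AG, any 2 bases and GGC. The hairpin of Mir6352 lies inside Epha4, next to the strongest CTCF summit of the gene body. Prkag3, Ptprn, Dnpep and Mir6352 were chosen after their values were seen. Sequences are from RefSeq (GRCm38.p6), 5′ to 3′ on the strand of the gene, which is the minus strand for all 5, and capitals mark a match to the core.
Epha4 promoter, chr1:77515039-77515338: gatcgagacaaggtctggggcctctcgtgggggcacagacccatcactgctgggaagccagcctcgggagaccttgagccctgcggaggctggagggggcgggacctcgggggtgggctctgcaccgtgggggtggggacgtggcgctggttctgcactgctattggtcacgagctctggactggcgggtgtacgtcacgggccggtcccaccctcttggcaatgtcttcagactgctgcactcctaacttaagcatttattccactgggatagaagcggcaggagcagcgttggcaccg
Prkag3 promoter, chr1:74748906-74749205: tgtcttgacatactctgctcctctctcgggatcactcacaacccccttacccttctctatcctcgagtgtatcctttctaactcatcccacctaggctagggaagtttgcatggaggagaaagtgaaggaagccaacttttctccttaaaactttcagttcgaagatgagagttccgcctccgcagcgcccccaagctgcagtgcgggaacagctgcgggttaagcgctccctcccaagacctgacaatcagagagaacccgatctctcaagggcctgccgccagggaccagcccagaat
Ptprn promoter, chr1:75264159-75264458: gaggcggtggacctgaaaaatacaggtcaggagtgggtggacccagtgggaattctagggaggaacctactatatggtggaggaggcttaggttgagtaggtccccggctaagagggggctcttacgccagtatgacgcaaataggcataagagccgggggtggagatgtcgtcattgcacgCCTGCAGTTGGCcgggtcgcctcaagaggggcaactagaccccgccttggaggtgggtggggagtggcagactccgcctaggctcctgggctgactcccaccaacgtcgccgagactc
Dnpep promoter, chr1:75316968-75317267: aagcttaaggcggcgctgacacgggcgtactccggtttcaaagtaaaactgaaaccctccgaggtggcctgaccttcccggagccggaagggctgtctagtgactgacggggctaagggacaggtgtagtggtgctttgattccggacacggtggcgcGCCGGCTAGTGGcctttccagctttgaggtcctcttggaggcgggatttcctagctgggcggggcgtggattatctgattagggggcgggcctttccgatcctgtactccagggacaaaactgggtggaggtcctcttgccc
Mir6352 hairpin, chr1:77496653-77496768: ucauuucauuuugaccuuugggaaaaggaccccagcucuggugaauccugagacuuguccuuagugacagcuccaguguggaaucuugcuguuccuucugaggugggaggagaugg

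In Ptprn, which encodes a membrane protein of secretory granules, the match covered bases 183 to 194 of the promoter, counted from 1 at its 5′ end, and the CTCF summits stood at base 179 in C59 (fold enrichment 6.22) and base 183 in WT (6.63). In Dnpep, an aminopeptidase gene, the match read on the opposite strand, covered bases 159 to 170 and lay beside summits at base 125 in C59 (8.18) and base 116 in WT (8.55). The Prkag3 promoter held no match, with CTCF summits at base 209 in C59 (43.5) and base 205 in WT (40.1). Prkag3 encodes a regulatory subunit of the energy-sensing kinase AMPK. A match was present in 8.61% of the 32851 promoters on record, and of those with a summit inside 35.6% held 1 for C59 CTCF and 33.3% for WT CTCF. In the window 6 of 59 promoters held a match, 2 of them with a CTCF summit in each line. A match is a description of letters and no match says nothing of whether CTCF binds. Fold enrichment is the authors' value of pileup over local background for each peak and describes strength within its own list.

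Wnt6 (chr1:74754342-74785322) carried CTCF along its whole length. Its annotated body held 6 CTCF peaks in C59 and 6 in WT, and 3 Smc3 peaks in C59 and 3 in WT. Every WT peak overlapped a C59 peak of the same protein, as did 79.8% of all WT CTCF and 52.9% of all WT Smc3 peaks. These were strong peaks, and at the same fold deciles the whole-list shares were 99.1% for CTCF and 84.3% for Smc3. Over the rest of chromosome 1 they were 99.7% and 93.7%. Within 10 kb of the gene the counts were 10 in C59 and 10 in WT for CTCF and 5 in C59 and 5 in WT for Smc3. None of these lay at the RefSeq start site at 74771892, where the nearest CTCF summit stood 4.16 kb downstream in C59 (fold 25.4) and 4.16 kb downstream in WT (23.9), without Smc3 in either line.

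Upstream of that start site, 3 places with strong CTCF carried both proteins. The place at chr1:74759638-74760505 had CTCF folds of 29.8 in C59 and 36.2 in WT and Smc3 folds of 9.40 in C59 and 11.9 in WT. The place at chr1:74762708-74763649 had CTCF folds of 32.8 in C59 and 22.1 in WT and Smc3 folds of 7.01 in C59 and 11.0 in WT. The third was the start of Prkag3, outside Wnt6, where Smc3 was weak. It had folds of 4.03 in C59 and 3.75 in WT, at percentiles 14.7 and 17.3 of their lists. Downstream, the place at the right end of Wnt6, chr1:74783914-74785233, had CTCF folds of 36.3 in C59 and 31.0 in WT and Smc3 folds of 4.48 in C59 and 5.91 in WT. This was the only end of the 4 genes with CTCF and Smc3 summits within 1 kb in both lines. Some 2.68 kb past the right end, inside the noncoding gene Gm32099, a place had the strongest Smc3 within 10 kb of Wnt6 in WT, with folds of 6.27 in C59 and 14.3 in WT.

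Ihh (chr1:74945315-74951672), a short gene on the minus strand, had its strong site inside the body rather than at its start. The place at chr1:74948094-74949832, 2.68 kb downstream of the start site in WT, had CTCF folds of 41.6 in C59 and 30.3 in WT and Smc3 folds of 5.95 in C59 and 7.06 in WT. A weak CTCF peak nearer the start had folds of 4.49 in C59 and 6.01 in WT, without Smc3. Its summit stood 1.28 kb inside the gene in C59 and 0.42 kb inside in WT, so that a rule of 1 kb found it in WT alone although the 2 peaks overlapped. Upstream of Ihh, at chr1:74953885-74954789, CTCF had folds of 12.3 in C59 and 16.7 in WT and Smc3 folds of 4.44 in C59 and 5.72 in WT.

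Epha4 (chr1:77367182-77515107), on the minus strand, had a strong CTCF and Smc3 place just outside its start and, by fold, weaker CTCF and Smc3 peaks within. At chr1:77515358-77517022, 1.35 kb outside the right end of the gene in WT, CTCF had folds of 40.0 in C59 and 30.9 in WT, and Smc3 12.2 in C59 and 16.7 in WT. The WT Smc3 fold stands at percentile 97.6 of its list. On the other side of the promoter printed above, CTCF 1.46 kb into the gene in WT had folds of 10.7 in C59 and 15.5 in WT, and Smc3 4.15 in C59 and 8.16 in WT. Between that summit and the start site WT had a further CTCF peak (6.77), which the C59 peak overlapped, and Smc3 had weak peaks in both lines (3.51 in C59 and 2.85 in WT). The WT one was the only peak to reach the promoter sequence, with its summit outside.

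Further into Epha4 the next place spanned the Mir6352 hairpin, 18.3 kb from the start site in WT. CTCF had folds of 11.2 in C59 and 19.1 in WT there, with summits 15 bp from the hairpin in C59 and 20 bp in WT, and Smc3 had a WT peak alone (3.47). The remaining CTCF place of both lines in the gene, at chr1:77433076-77433577, had folds of 6.95 in C59 and 8.93 in WT. At the far, left end of the gene no peak lay within 1 kb, and a WT CTCF peak of fold 3.59 stood 4.79 kb outside.

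Pax3 (chr1:78101267-78197136) was all but free of both proteins. Over its 95.9 kb no C59 CTCF, C59 Smc3 or WT Smc3 peak had its summit, and 1 WT CTCF peak did, at chr1:78140811-78141151 with a fold of 6.40. That peak was the strongest WT CTCF peak of the window without a C59 counterpart. A place 3.24 kb past the right end had CTCF folds of 5.64 in C59 and 13.4 in WT and no Smc3. No peak lay in the 64.3 kb on the left side. The intervals around Pax3 without a peak measured 163 kb for C59 CTCF, 258 kb for C59 Smc3 and 206 kb for WT Smc3. Among intervals between neighbouring autosomal peaks, 2472 of 80239, 2013 of 25381 and 2193 of 46330 were at least as long, in the same order. Where no peak is listed the signal did not pass the authors' calling, and weaker binding there cannot be told from none.

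**Figure D1:**
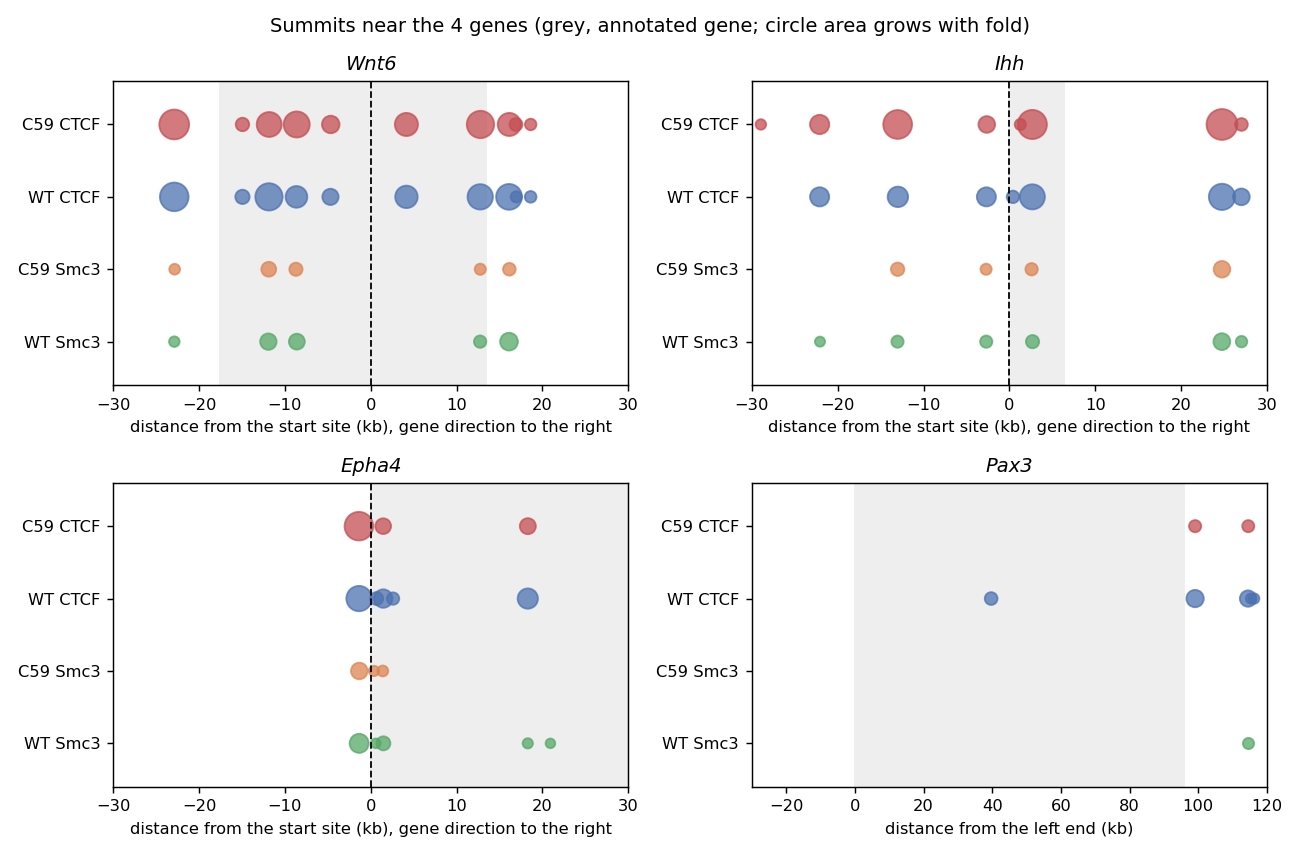
Summits near Wnt6, Ihh and Epha4 by distance from the RefSeq start site in kb (dashed line, gene direction to the right) and near Pax3 by distance from its left end in kb. Rows are the 4 lists, grey is the annotated gene and the area of a circle grows with fold. Wnt6 held 6 CTCF summits in its body in each line, and Pax3 none in C59 and 1 in WT.

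Peaks were packed into the gene-dense end. From the window start to the end of Slc4a3, CTCF peaks numbered 111 in C59 and 108 in WT, or 123 per Mb in C59 and 119 per Mb in WT, against 19.6 in C59 and 20.9 in WT in both gene-poor stretches combined. Over the autosomes the lists averaged 33.5 per Mb in C59 and 40.2 in WT, so the one end stood above and the other below. Smc3 had 40.9 peaks per Mb in C59 and 71.8 in WT at the gene-dense end, 7.10 in C59 and 11.3 in WT in the gene-poor stretches, and 10.6 in C59 and 19.4 in WT over the autosomes. Median CTCF fold was 11.4 in C59 and 12.8 in WT at the gene-dense end and 11.5 in C59 and 10.4 in WT in the gene-poor stretches. By place, 13.9% of C59 CTCF peaks and 15.3% of WT CTCF peaks lay within 1 kb of a gene end, 33.9% in C59 and 33.5% in WT elsewhere inside a protein-coding gene, and 52.1% in C59 and 51.2% in WT outside.

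**Figure D2:**
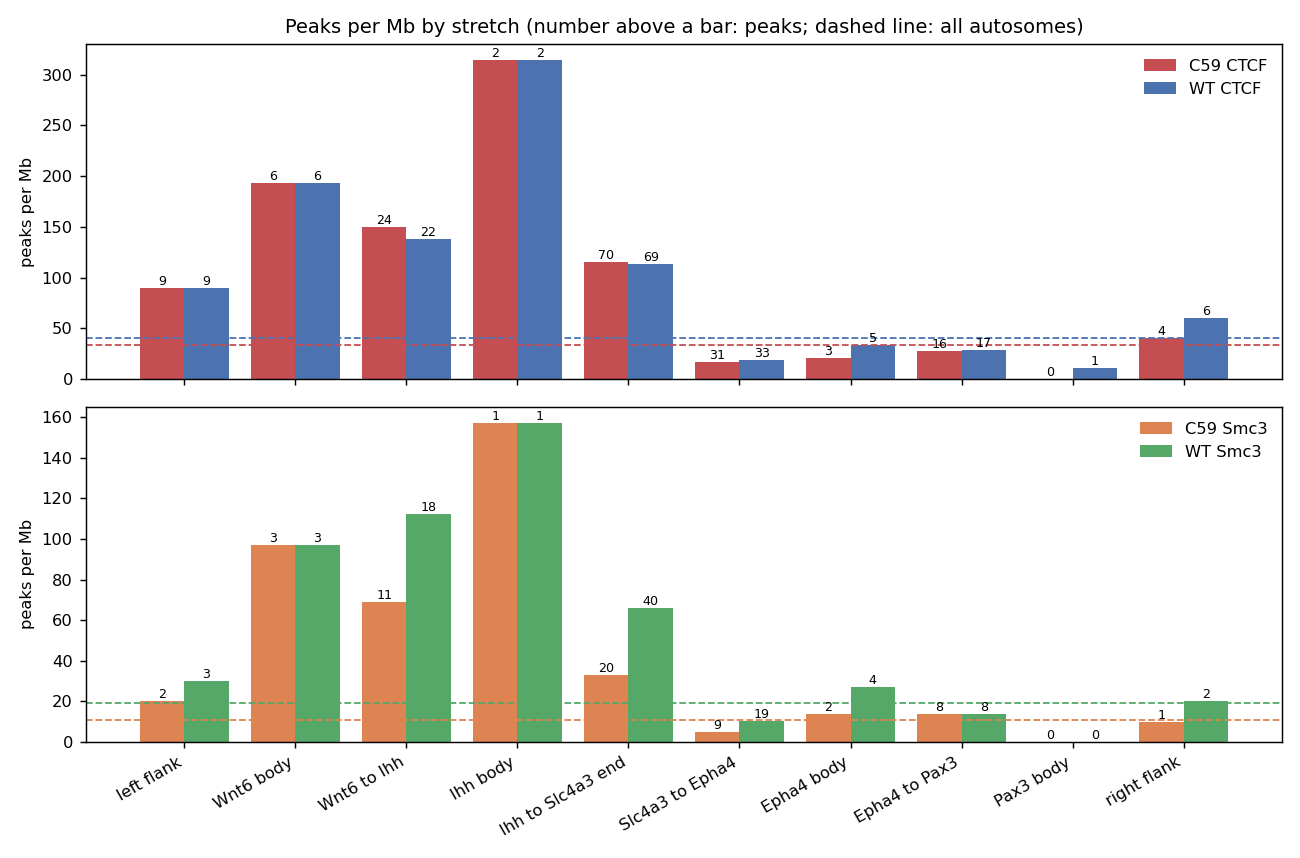
Peaks per Mb (y axis) in each of the 10 stretches of the window (x axis, in genome order) for CTCF (top) and Smc3 (bottom), with C59 left of WT. Numbers above bars are peaks and dashed lines are the autosomal averages of each list, 33.5 in C59 and 40.2 in WT for CTCF and 10.6 in C59 and 19.4 in WT for Smc3. Bars of short stretches such as Ihh rest on 1 or 2 peaks.

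Between Wnt6 and Ihh, over 160 kb with Wnt10a (a Wnt ligand gene), Fev, Cryba2 and Cfap65, there were 24 CTCF peaks in C59 and 22 in WT. All 22 WT peaks overlapped a C59 peak (exact 95% interval 84.6 to 100). At the same fold deciles the shares were 87.4% over the whole list and 92.2% over the rest of chromosome 1, both inside that interval. The strongest in WT, within Cryba2, a lens crystallin gene, had CTCF folds of 31.1 in C59 and 47.3 in WT and, at the same summit, Smc3 folds of 4.93 in C59 and 14.5 in WT. Under the same CTCF peak a second Smc3 peak had folds of 5.88 in C59 and 6.05 in WT. The strongest in C59 lay inside Cfap65, a gene of the sperm flagellum to the left of Ihh. This place, chr1:74926345-74927281, had CTCF folds of 46.8 in C59 and 33.3 in WT and Smc3 folds of 12.2 in C59 and 12.5 in WT. Smc3 in this stretch numbered 11 peaks in C59 and 18 in WT. Of the 18, 11 (61.1%) overlapped a C59 peak, against 58.4% over the whole list and 69.6% over the rest of chromosome 1 at the same fold deciles.

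From Ihh to the end of Slc4a3 lay the strongest sites of the window. The highest CTCF and the highest Smc3 fold of the window in each line stood at 1 place, chr1:75476871-75479059 in Chpf, a gene for a chondroitin polymerizing factor. CTCF had folds of 64.0 in C59 and 60.2 in WT there and Smc3 21.6 in C59 and 34.6 in WT, each above percentile 99.9 of its list. Nhej1, a DNA end-joining gene whose introns hold limb enhancers of Ihh in mice, carried a pair of strong places. The one at chr1:75000140-75001233 had CTCF folds of 38.6 in C59 and 58.5 in WT and Smc3 folds of 11.1 in C59 and 18.2 in WT. The other, at chr1:75016678-75017906, had CTCF folds of 48.1 in C59 and 42.3 in WT and Smc3 folds of 15.2 in C59 and 15.9 in WT. Obsl1, a cytoskeletal adaptor gene, also ranked among the 5 highest WT CTCF folds of the window (39.4 in C59 and 44.7 in WT).

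At the border of the gene-dense end, at the right end of Slc4a3, the place chr1:75559120-75560261 had the second highest Smc3 fold of the window in WT, with 13.0 in C59 and 19.3 in WT, on CTCF of 24.1 in C59 and 32.4 in WT. Beyond it the gene-poor stretch toward Epha4 began with a run of sites. The strongest, at chr1:75652226-75654323, 94.3 kb from Slc4a3, had CTCF folds of 34.8 in C59 and 54.7 in WT and Smc3 folds of 7.20 in C59 and 13.8 in WT. C59 called 2 CTCF peaks there and WT 1, the kind of split that occurred, for any list, at 12 of the 178 places formed by merging overlapping peaks. The last strong place of the run, at chr1:75925493-75926325, had CTCF folds of 28.0 in C59 and 35.5 in WT and Smc3 folds of 6.76 in C59 and 13.0 in WT.

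Then came the longest intervals of the window without a peak. In C59 no Smc3 peak stood from 75956220 to 77513513. These 1557 kb take in most of the Epha4 body and end just inside its start, which is its right end. In WT no Smc3 peak stood from 75997559 to 77081637, 1084 kb. Among the intervals between neighbouring autosomal Smc3 peaks, 95 of 25381 in C59 and 92 of 46330 in WT were at least as long. The longest interval between CTCF peaks, which began at 76515309 in C59 and 76515341 in WT, was 330.1 kb in both lines, and 739 autosomal intervals were at least as long in C59 and 606 in WT. Within the Smc3-free interval of WT, CTCF stood in both lines at chr1:76515003-76515340 (folds 4.85 in C59 and 4.75 in WT) and chr1:76845415-76845978 (4.71 in C59 and 7.40 in WT). In C59 alone it stood at chr1:76216982-76217339 (4.66) and chr1:77021330-77021681 (3.73), and in WT alone at chr1:76249561-76249922 (6.08). The place that ends the interval, 285 kb from the left end of Epha4, had CTCF folds of 13.6 in C59 and 12.3 in WT and Smc3 in WT alone (4.43).

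Between Epha4 and Pax3 strong sites returned. Of 17 WT CTCF peaks 16 overlapped a C59 peak, and all 8 WT Smc3 peaks did. Of the 8 places with all 4 lists, 3 lay near Epha4, at its start and inside the noncoding gene Gm32793, where the place at chr1:77589078-77590136 had CTCF folds of 31.0 in C59 and 25.8 in WT and Smc3 folds of 11.2 in C59 and 7.92 in WT. The other 5 formed a group of 79.0 kb at chr1:77930453-78009489, 415 kb from the right end of Epha4 and 91.8 kb from the left end of Pax3.

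In that group no CTCF fold was below 21.6 in C59 or 27.9 in WT. The first place, chr1:77930453-77931353, had CTCF folds of 21.6 in C59 and 30.0 in WT and Smc3 folds of 3.80 in C59 and 8.21 in WT. The next, chr1:77942800-77943903, had CTCF folds of 31.4 in C59 and 34.6 in WT and Smc3 folds of 5.72 in C59 and 8.30 in WT. The central place, chr1:77972129-77973140, had CTCF folds of 38.0 in C59 and 41.9 in WT and Smc3 folds of 7.35 in C59 and 11.3 in WT. The place at chr1:77978419-77979415 had CTCF folds of 30.1 in C59 and 27.9 in WT and Smc3 folds of 7.46 in C59 and 8.86 in WT. The place nearest to Pax3, chr1:78008608-78009489, had CTCF folds of 42.7 in C59 and 39.6 in WT and Smc3 folds of 4.45 in C59 and 6.20 in WT. On the left the group was preceded by the noncoding gene Gm33083, whose promoter held a CTCF summit in each line (7.09 in C59 and 10.4 in WT) without Smc3. Past Pax3, only the place at chr1:78267394-78268054 carried both proteins in both lines (CTCF 23.4 in C59 and 16.4 in WT, Smc3 5.56 in C59 and 4.76 in WT).

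**Figure D3:**
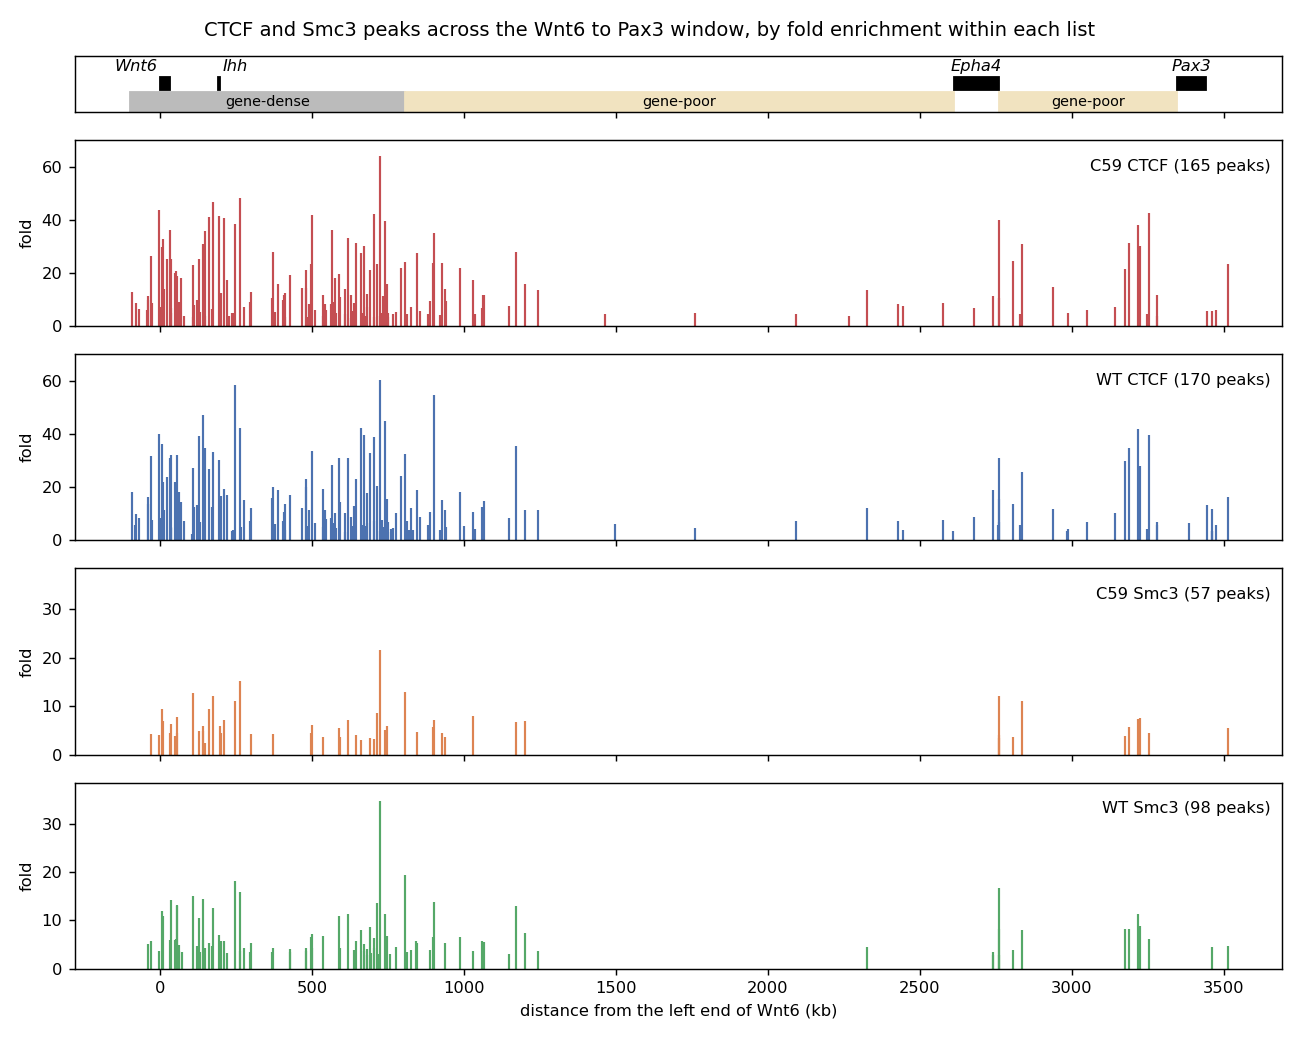
Fold enrichment (y axis) at every peak summit of the 4 lists against distance in kb from the left end of Wnt6 (x axis), with the 4 genes as black boxes and the gene-dense and gene-poor parts marked. Peaks crowd the gene-dense end, and 5 strong places stand between Epha4 and Pax3. No Smc3 peak is listed over 1084 kb before Epha4 in WT. In C59 none is listed over 1557 kb, which take in most of the Epha4 body.

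Nearly every C59 peak of the window had a WT counterpart, taken as an overlap of 1 bp or more. For CTCF this held for 159 of 165 C59 peaks (96.4%, exact 95% Clopper-Pearson interval 92.3 to 98.7, counting error only), against 97.1% over the whole list. For Smc3 it held for 56 of 57 C59 peaks (98.2%, 90.6 to 99.96), against 98.1%. Counted from WT, 157 of 170 CTCF peaks (92.4%, 87.3 to 95.9) overlapped a C59 peak, against 79.8% over the whole list and 87.2% over the rest of chromosome 1. Of 98 WT Smc3 peaks 56 (57.1%, 46.7 to 67.1) overlapped a C59 peak, against 52.9% over the whole list and 65.0% over the rest of chromosome 1. Where the whole list and the rest of chromosome 1 are weighted to the fold deciles of the window, the shares are 84.5% and 90.4% for CTCF and 49.3% and 61.1% for Smc3. With each list held to its 25734 strongest peaks, 93.9% of WT CTCF peaks overlapped a C59 peak (83.1 to 98.7), against 91.1% over the whole list. For WT Smc3 the share was then 92.2% (81.1 to 97.8), against 83.4%. Both whole-list values lay inside these intervals. With the full lists, the interval of the CTCF share held only the weighted value of chromosome 1 among the 4 values beside it, and the interval of the Smc3 share held all 4.

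On this chromosome the background under the C59 peaks was raised. The local background that pileup and fold imply had a median 1.5 times that of the autosomes other than 1, 8 and 11 in the window for C59 CTCF and 1.5 times for C59 Smc3, and 1.05 and 1.04 times for WT CTCF and WT Smc3. Over the rest of chromosome 1 the ratios were 1.35 and 1.5 in C59 and 1.05 and 1.04 in WT. The part of this background in the shares was not tested.

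The sites of WT alone were the weak ones, in the window as over the whole lists. WT CTCF peaks of the window with a C59 peak had a median fold of 12.1 and the 13 without 4.22, and all 114 from the fifth decile of the WT list upward had a C59 peak. For Smc3 the medians were 7.66 and 3.88, and all 33 from the seventh decile upward had a C59 peak. Over the whole list the medians were 12.9 and 4.17 for CTCF and 8.33 and 4.24 for Smc3. Both cuts were read off these same peaks, as the first decile above the last window peak without a C59 peak. Over the whole list 95.1% of WT CTCF peaks of the fifth decile had a C59 peak, and 99.4% or more in each higher decile. For WT Smc3 the whole-list shares were 75.0%, 89.2%, 96.8% and 99.6% in deciles 7, 8, 9 and 10. The window held only 6 WT Smc3 peaks in decile 7. After the Pax3 peak, the strongest CTCF peaks of WT alone stood 690 kb from Slc4a3 (6.08), in Ttll4, a tubulin-modifying enzyme gene at the window start (5.95), in Epha4 (5.88) and 196 kb from Slc4a3 (5.42). For Smc3 the strongest of WT alone stood 182 kb from Slc4a3 (6.49), 2.27 kb from Wnt10a (6.17), and 37.7, 253 and 260 kb from Slc4a3 (5.83, 5.79 and 5.62). C59 alone had 6 CTCF peaks, the strongest 658 kb from Slc4a3 (4.66), 1 of them over the hairpin of Mir375 (3.69), and 1 Smc3 peak, 123 kb from Slc4a3 (4.41), on CTCF of both lines.

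**Figure D4:**
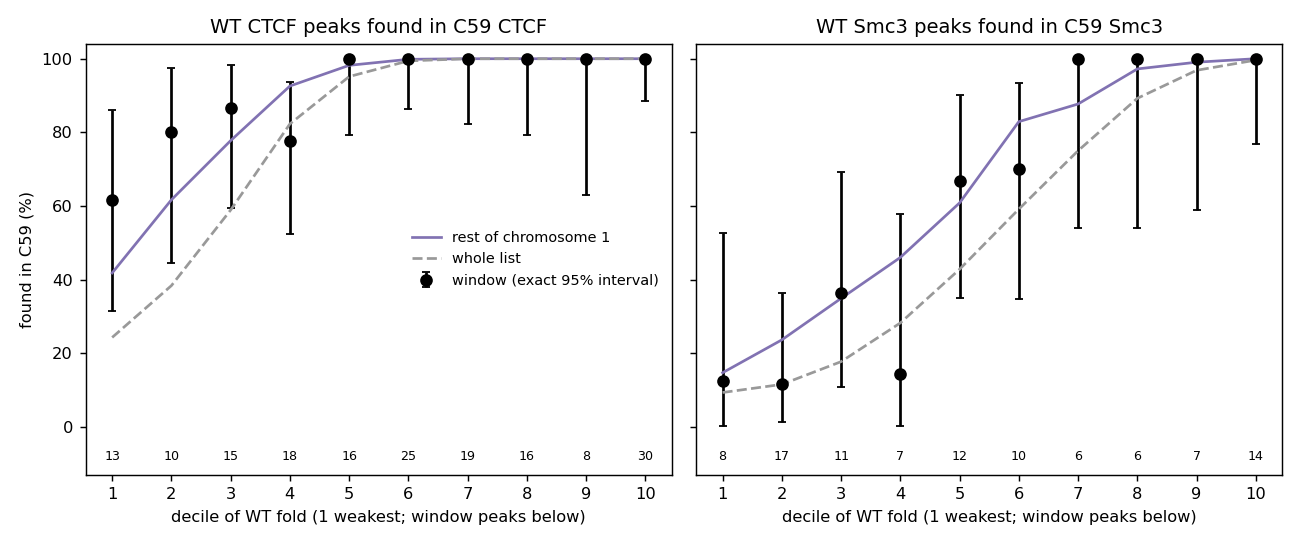
Share of WT CTCF peaks (left) and WT Smc3 peaks (right) found in C59 (y axis, %) by decile of WT fold (x axis, 1 weakest), for the window (points with exact 95% intervals, numbers of peaks below), the rest of chromosome 1 and the whole list. In the window every CTCF peak from the fifth decile and every Smc3 peak from the seventh decile upward was found. Those cuts were read off the same points.

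Single stretches rest on few Smc3 peaks. The WT Smc3 peaks with a C59 peak were, between Epha4 and Pax3, 8 of 8 peaks (63.1 to 100), in the gene-dense end 37 of 65 (56.9%, 44.0 to 69.2) and between Slc4a3 and Epha4 8 of 19 (42.1%, 20.3 to 66.5). Median WT Smc3 folds were 8.26, 5.32 and 5.27 in the same order. At those folds the rest of chromosome 1 gave 87.0%, 60.9% and 57.6%, each inside the interval of its stretch. For CTCF the counts were 16 of 17, 105 of 108 and 28 of 33, against 88.6%, 91.7% and 87.9% at the same folds on the rest of chromosome 1. Only the share of the gene-dense end, 97.2% (92.1 to 99.4), had an interval that did not hold the chromosome's value.

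Smc3 lay on CTCF throughout the window. Of 57 C59 Smc3 peaks 56 (98.2%) overlapped a C59 CTCF peak, against 97.9% over the whole list, and of 98 WT Smc3 peaks 93 (94.9%, 88.5 to 98.3) a WT CTCF peak, against 95.2%. Counted from CTCF, 54 of 165 C59 CTCF peaks (32.7%, 25.6 to 40.5) overlapped Smc3, against 30.0%, and 84 of 170 WT CTCF peaks (49.4%, 41.7 to 57.2), against 44.3%. At this overlap of 1 bp, each of these shares had an interval that held the value of the whole list. With an overlap of 50% of both peaks, 43.9% of C59 Smc3 peaks lay on CTCF (30.7 to 57.6), against 52.4% over the whole list, and 52.0% of WT Smc3 peaks did (41.7 to 62.2), against 66.3%, which lies outside that interval. With each list held to its 25734 strongest peaks, 82.5% of C59 CTCF peaks lay on Smc3, against 75.6% over the whole list, and 81.6% of WT CTCF peaks did, against 77.9%. The 5 WT Smc3 peaks off CTCF were weak and lay in Nhej1 (3.61), Abcb6 (3.49), Asic4 (3.10), near Inha (3.03) and in Epha4 (2.79), and the only such C59 peak was the weak one next to the Epha4 start site.

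The 178 merged places sort by strength. CTCF and Smc3 of both lines met at 51 places, with median CTCF folds of 28.0 in C59 and 30.9 in WT. At 32 places CTCF stood in both lines and Smc3 in WT alone, with median CTCF folds of 9.78 in C59 and 13.2 in WT. At 70 places CTCF stood in both lines without Smc3 in either, with 6.22 in C59 and 6.95 in WT. The rest were 13 places with WT CTCF alone, 6 with C59 CTCF alone, 5 with WT Smc3 alone and 1 with CTCF of both lines and C59 Smc3. The whole list sorted in the same way. Of the 157 WT CTCF peaks of the window with a C59 peak, 33.1% had Smc3 in both lines, 20.4% in WT alone and 45.9% in neither. Over the whole list the shares were 30.8%, 23.2% and 45.6%, with median WT CTCF folds of 26.0, 14.8 and 7.17. The strongest CTCF places without Smc3 lay beside Dnpep (CTCF 36.3 in C59 and 28.4 in WT), at the start of Slc4a3 (21.7 in C59 and 24.0 in WT) and inside Wnt6 downstream of its start site (25.4 in C59 and 23.9 in WT).

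At gene ends, CTCF summits stood within 1 kb at 20 of the 39 protein-coding genes of the window in C59 (51.3%), against 32.9% of all protein-coding genes, and at 23 of 39 in WT, against 38.3%. Smc3 summits stood at 8 in C59 (20.5%), against 11.2%, and at 14 in WT (35.9%), against 20.8%. Neighbouring genes here can share a peak, as Nhej1 with Slc23a3 (CTCF 28.0 in C59 and 20.2 in WT) and Cnppd1 with Retreg2 (15.8 in C59 and 18.8 in WT). Of the 4 genes the window was built on, 1 had a CTCF summit at an end in C59 and 3 in WT, and 2 had Smc3 in C59 and 2 in WT. Within 2500 bp the CTCF counts were 3 in C59 and 3 in WT, against 51.1% and 56.8% of all protein-coding genes. The genes counted at 1 kb in WT alone were Ihh, where overlapping peaks had their summits apart, and Epha4, where WT had the additional peak of fold 6.77.

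The families of the 4 genes elsewhere in the genome were counted at the same reach of 1 kb, at which 32.9% of all protein-coding genes had CTCF in C59 and 38.3% in WT, and 11.2% had Smc3 in C59 and 20.8% in WT. Differences between these short lists were not tested. Of 19 Wnt ligand genes 8 had CTCF at an end in C59 and 9 in WT, and 3 in C59 and 5 in WT had Smc3. Wnt6 had the highest CTCF folds of them in both lines, next to Wnt1, the founding ligand of the family (33.0 in C59 and 30.3 in WT). Of 16 hedgehog pathway genes 10 had CTCF in C59 and 11 in WT, and 5 in C59 and 7 in WT had Smc3. Gli1, a transcriptional effector of the pathway (40.5 in C59 and 39.9 in WT), and Boc, a hedgehog co-receptor (43.6 in C59 and 28.9 in WT), had the highest CTCF folds of the list, while Ihh had no CTCF summit at an end in C59 and 6.01 in WT.

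Of 22 Eph receptor and ephrin genes 9 had CTCF in C59 and 14 in WT, and 6 in C59 and 11 in WT had Smc3. Ephb1, an Eph receptor gene, had the highest WT CTCF fold of the list (CTCF 44.8 in C59 and 42.8 in WT, Smc3 11.2 in C59 and 12.8 in WT). Efnb1, an ephrin gene on X, had Smc3 summits within 1 kb of an end (8.14 in C59 and 18.0 in WT) but no CTCF summit within that reach. Over the whole list no WT Smc3 peak off CTCF had a fold above 11.6, so the WT peak overlapped a CTCF peak. Of 9 Pax family genes 2 had CTCF in C59 and 3 in WT, and 1 in C59 and 2 in WT had Smc3. Pax1, a factor of the developing spine, had CTCF folds of 14.8 in C59 and 18.1 in WT, while Pax3, Pax2, Pax4, Pax6, Pax8 and Pax9 had no peak of either protein at an end.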

How the data were processed

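Groups came from the sample titles. Of 8 libraries, peak lists of 4 (C59 CTCF, WT CTCF, C59 Smc3 and WT Smc3, 1 library each) were analysed, and the input and IgG libraries were not used here. Per the labels, cells were cross-linked with formaldehyde and sonicated, and reads were single-end. Per the submitters' processing notes, MACS2 2.1.0.20140616, Bowtie 0.12.8, deepTools 2.4.1, FastQC 0.10.1 and CASAVA were used with the mm10 build, with neither role nor order given. Control, threshold and duplicate handling are not given in the sources used here. The authors deposited for each peak its pileup signal, its fold enrichment (a ratio), a q-value and a p-value, and its length and summit in bp. Pileups are whole numbers in the WT lists and not in the C59 lists, so fold describes peaks within a list only.

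Peaks were assigned by summit and compared by overlap of at least 1 bp with pandas 2.3.3, scipy 1.17.1 and numpy 2.4.6 under Python 3.11.15, drawn with matplotlib 3.10.9, and the overlap code was tested on simulated data. To get the background, 1 was added to the pileup, the sum was divided by fold and 1 was taken off. Deciles of fold were taken over each whole list. Genes came from the RefSeq table of GRCm38.p6, in which all 4 genes and every listed family gene matched, and places are merged overlapping peaks of the 4 lists, with the strongest fold of a list taken in medians over places. Start sites came from the RefSeq promoter table, in which Pax3 was not matched. Named genes were the 4, their neighbours, genes bordering gaps of 200 kb and genes at the strongest sites of each kind and stretch. Members, lists and rules were chosen with earlier results of these data known. Alternatives covered overlap, q threshold, list length, window flanks and the reach of a gene end. No test between lines was made because each list is a single library, and intervals cover counting error only.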

Additional observations from a re-analysis of the deposited data

How the results depend on the processing

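No paired analysis was possible because each group has 1 library and no result comes from a test. The counts of peaks depend on list length. With each list held to its 25734 strongest peaks the window had 57 C59 CTCF, 49 WT CTCF and 51 WT Smc3 peaks, and the shares were 92.2% for WT Smc3 found in C59, 84.2% for C59 CTCF found in WT and 82.5% for C59 Smc3 found in WT. At a −log10 q of at least 10 WT Smc3 had 57 peaks. With an overlap of 50% of both peaks, 90.3% of C59 CTCF peaks were found in WT. Shares on the other protein of the same line moved more. With the 50% overlap they were 43.9% for C59 Smc3 on CTCF, 52.0% for WT Smc3 on CTCF and 15.2% for C59 CTCF on Smc3 and 30.0% for WT CTCF on Smc3. At the q threshold Smc3 lay on CTCF in 100% in both lines, and CTCF on Smc3 in 25.5% in C59 and 35.1% in WT. At equal numbers Smc3 lay on CTCF in 86.0% in C59 and 88.2% in WT, and CTCF on Smc3 in 82.5% in C59 and 81.6% in WT. Other shares and counts of peaks stayed inside the interval or within 1.5 times under these settings and with no flanks. Gene-end counts depend on the reach. Within 2500 bp C59 CTCF had 3 of the 4 genes and 31 of the 39, against 51.1% of all protein-coding genes. Within 10000 bp it had 4 of 4, against 75.3%. Within 10000 bp CTCF had 39 of 39 in each line, against 75.3% of all protein-coding genes in C59 and 78.4% in WT. Smc3 had 22 in C59, against 45.7%, and 30 in WT, against 62.9%. With no read totals, depth limits which weak sites could be called and cannot be set apart from occupancy.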
